A study of Mus musculus with 12 samples.

Results

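Mouse aortic endothelial cells (MAECs), which line the vessel, were profiled by ATAC-seq, an assay whose enzyme inserts sequencing adapters where DNA is accessible. The regions described here were those in which a peak was called in offspring exposed to WD both through their mothers and through their own diet (WDM-WDO), with no peak called in any of the other 3 groups. Peaks of the 4 lists on chromosomes 1 to 19 and X were merged where they overlapped by at least 1 bp, which gave 48003 regions. Of these, 8520 (17.7%) held a WDM-WDO peak and no other, and they are called WDM-WDO-only regions below. WDM-CDO had 8190 regions of its own (17.1%), CDM-WDO 5243 (10.9%) and CDM-CDO 4420 (9.21%). They were chosen by the called peaks themselves, so their absence from the other lists is the rule and not a finding.

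The 8 ATAC-seq samples formed 4 groups of 2. In WDM-WDO both the mothers and the offspring had received WD, in WDM-CDO the mothers alone had, in CDM-WDO the offspring alone had, and in CDM-CDO neither had. Both WDO groups had been put back on WD for 4 weeks. The labels abbreviate the diets as CD and WD, the title of the series speaks of a maternal high-fat diet, and M and O were read as mothers and offspring; the sources used here give no strain, sex or age. The names of the peaks carry 12w in both WDO lists and 08w in both CDO lists, so the diet of the offspring and whatever this mark denotes cannot be told apart. Each group had 1 peak list that does not separate its 2 samples. There are therefore no replicates, no difference between groups could be tested, and every comparison below is a description. Intervals are 95% Wilson intervals and cover counting error only.

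Regions of open chromatin away from start sites often act as enhancers, and those at start sites as promoters. Inflammatory stimuli can open such regions through transcription factors of the AP-1, NF-kB and interferon families, and part of this opening can outlast the stimulus, which is one form of what is called epigenetic memory. In the artery wall exposed to high cholesterol, endothelial cells take up lipoproteins and recruit monocytes, which become macrophages and, once filled with lipid, foam cells. The lineage of macrophages depends on PU.1, encoded by Spi1, which binds at many macrophage promoters and enhancers and acts there together with AP-1. In a bulk preparation, more cells of a type and more open chromatin per cell cannot be told apart.

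Of the 8520 regions, 347 (4.07%) overlapped a promoter window, taken as 250 bases before to 50 after a start site listed by RefSeq (GRCm38.p6). The share was 4.87% for the regions in WDM-CDO alone, 1.56% for those in CDM-WDO alone, 4.1% for those in CDM-CDO alone, 61.9% for those in all 4 lists and 19.9% for all regions. The 8 sequences below are the 250 bases before the start site of 8 such genes, 5′ to 3′ on the strand of the gene. They were chosen after their values were seen, to show promoters with the motifs counted further below and promoters without them. Capitals mark a PU.1 motif (GAGGAAGT), an AP-1 motif (TGANTCA) or the core of the interferon-stimulated response element, ISRE (GAAANNGAA), on either strand. Trem2 encodes a lipid-sensing receptor of macrophages (chr17:48346151-48346400, plus strand). C1qb encodes a chain of the complement protein C1q, made by macrophages (chr4:136886201-136886450, minus strand). Tagap encodes a GTPase-activating protein of immune cells (chr17:7925750-7925999, plus strand), Tnip3 a protein that binds the NF-kB inhibitor A20 (chr6:65590148-65590397, plus strand) and Tbxas1 thromboxane synthase (chr6:38918736-38918985, plus strand). Cd80 encodes a co-stimulatory ligand for T cells (chr16:38458683-38458932, plus strand) and Oas3 an antiviral oligoadenylate synthetase (chr5:120777660-120777909, minus strand). Lin54, whose product is part of a complex that controls cell cycle genes (chr5:100500640-100500889, minus strand), is shown as a CpG-rich contrast.
Trem2: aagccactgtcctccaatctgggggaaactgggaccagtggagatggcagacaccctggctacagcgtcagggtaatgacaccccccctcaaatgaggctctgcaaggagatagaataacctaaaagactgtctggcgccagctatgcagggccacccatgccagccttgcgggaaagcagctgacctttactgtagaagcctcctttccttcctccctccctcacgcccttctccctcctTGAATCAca
C1qb: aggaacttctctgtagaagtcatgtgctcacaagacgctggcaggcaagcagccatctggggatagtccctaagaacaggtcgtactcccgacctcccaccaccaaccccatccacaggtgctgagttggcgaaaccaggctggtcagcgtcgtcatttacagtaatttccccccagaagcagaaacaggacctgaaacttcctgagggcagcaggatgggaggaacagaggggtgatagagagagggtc
Tagap: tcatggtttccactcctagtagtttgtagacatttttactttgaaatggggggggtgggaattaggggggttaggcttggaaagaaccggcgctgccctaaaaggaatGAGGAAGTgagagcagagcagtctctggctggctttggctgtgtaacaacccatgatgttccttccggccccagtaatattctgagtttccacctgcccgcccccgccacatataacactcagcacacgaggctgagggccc
Tnip3: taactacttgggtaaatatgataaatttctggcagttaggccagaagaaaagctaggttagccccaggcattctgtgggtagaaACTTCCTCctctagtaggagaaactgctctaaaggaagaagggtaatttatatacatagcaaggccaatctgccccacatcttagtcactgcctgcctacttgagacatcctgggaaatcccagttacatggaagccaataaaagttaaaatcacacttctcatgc
Tbxas1: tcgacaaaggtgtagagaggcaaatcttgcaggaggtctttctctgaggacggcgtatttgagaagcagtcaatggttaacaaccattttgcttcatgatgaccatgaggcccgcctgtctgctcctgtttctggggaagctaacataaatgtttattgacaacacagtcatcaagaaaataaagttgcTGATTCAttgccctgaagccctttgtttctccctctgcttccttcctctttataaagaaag
Cd80: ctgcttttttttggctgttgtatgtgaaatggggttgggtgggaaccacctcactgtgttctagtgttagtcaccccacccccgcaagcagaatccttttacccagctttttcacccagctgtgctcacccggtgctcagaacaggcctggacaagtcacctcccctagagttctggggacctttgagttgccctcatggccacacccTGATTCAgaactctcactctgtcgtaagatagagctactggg
Oas3: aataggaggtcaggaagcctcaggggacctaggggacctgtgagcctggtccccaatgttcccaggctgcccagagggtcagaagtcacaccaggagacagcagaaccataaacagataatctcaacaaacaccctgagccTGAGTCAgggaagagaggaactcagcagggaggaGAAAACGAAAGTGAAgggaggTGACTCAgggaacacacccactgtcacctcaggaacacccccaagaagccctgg
Lin54: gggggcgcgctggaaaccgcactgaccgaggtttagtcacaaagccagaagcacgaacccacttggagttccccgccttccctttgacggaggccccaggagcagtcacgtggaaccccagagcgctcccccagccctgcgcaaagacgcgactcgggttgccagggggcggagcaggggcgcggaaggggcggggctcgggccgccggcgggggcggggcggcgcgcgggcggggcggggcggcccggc

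The AP-1 motif of Trem2 began 9 bases before the start site, that of Cd80 42 and that of Tbxas1 61. Oas3 held 2 AP-1 motifs, 109 and 54 bases before its start site, and between them 2 overlapping ISRE cores at 75 and 69. The PU.1 motif of Tnip3 lay 166 bases before the start site. All of these lay inside the called peak, whereas the PU.1 motif of Tagap, 142 bases before the start site, reached into its peak by 1 base. The window of C1qb held none of the 3 motifs, and that of Lin54 held none of them either but 7 copies of the SP/KLF motif GGGCGG, none of which lay inside its peak, and 35 CpG dinucleotides. The other windows held between 0 (Tnip3) and 6 (C1qb and Tagap) CpG. A match is a description of the letters and not a site of binding.

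The WDM-WDO-only regions were narrow and weak beside regions shared by all groups. Their median width was 372 bp (10th to 90th percentile 274 to 655), against 1042 bp for the 10351 regions found in all 4 lists. Fold enrichment over local background, as the authors' peak caller gave it, had a median of 2.71 (2.35 to 3.40), against 5.09 in regions of all 4 lists. The median −log10 q was 3.29 (1.87 to 7.75), and the whole range ran from 1.30, the threshold of the list, to 314. The number of reads piled up at the summit, recovered from fold enrichment and −log10 p, had a median of 24, against 73 in the WDM-WDO list at regions of all 4 lists. Regions found in 1 other list alone were as narrow (390 bp in the WDM-CDO class, 383 bp in that of CDM-WDO and 373 bp in that of CDM-CDO), with median pileups of 20, 19 and 18 reads.

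By rank within the WDM-WDO list, the strongest 2628 of the 26275 peaks held 2 of these regions, the next 2627 held 8 and the weakest 2627 held 2204 (83.9%). The stronger 50% of the list held 850 of the 8520 (9.98%). The nearest peak of another list lay a median 13298 bp away, against 19548 bp for regions in WDM-CDO alone, 33971 bp for CDM-WDO alone and 19130 bp for CDM-CDO alone. At the edge of the rule, 65 WDM-WDO-only regions had a peak of another list within 50 bp, with a median −log10 q of 2.98. Just outside it, 47 WDM-WDO regions overlapped another list's peak by less than 50 bp, with a median −log10 q of 3.12.

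Because most of these peaks were weak, the depth of the other lists bears on their absence there. Over 5183 strong shared regions, pileups above background were a median 1.26 times as high in WDM-CDO as in WDM-WDO, 0.669 times in CDM-WDO and 0.840 times in CDM-CDO. Scaled by these ratios, all 8520 regions would have reached the lowest pileup called in WDM-CDO (15 reads), 8404 (98.6%) that in CDM-CDO (14 reads) and 5922 (69.5%) that in CDM-WDO (15 reads). The count for WDM-CDO was fixed in advance, since its ratio was 1.26 and no summit pileup was below 16 reads. It does not show whether WDM-CDO could have called these regions. With a margin of 1.5 times that lowest pileup in all 3 lists, 2103 regions (24.7%) would have reached it. Both of the last counts, 5922 and 2103, are set by CDM-WDO alone, the list with the fewest peaks. A call also depends on the local background, which these ratios do not include.

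Like all regions, the WDM-WDO-only regions lay mostly within genes or in their surroundings, and they lay rarely at gene ends. Of the 8520, 689 (8.09%, interval 7.53 to 8.68%) had a protein-coding gene's end within 1 kb, against 24.7% of all regions and 67.4% of the regions in all 4 lists. The share was 9.22% in the WDM-CDO class, 3.91% in that of CDM-WDO and 9.5% in that of CDM-CDO. Among the 2103 regions that passed the margin above it was 14.5%, against 27.6% of all regions once those that missed it were left out. Inside the span of a gene lay 52.0%, below the 58.6% of all regions and the 84.6% of those in all 4 lists. It was 48.9%, 34.8% and 46.8% for the WDM-CDO, CDM-WDO and CDM-CDO regions found alone. Over 100 kb from any gene lay 13.5%, against 13.6% of all regions and 18.5%, 34.1% and 24.2% in these 3 classes. The median distance to a listed start site of a coding gene was 36698 bp, against 29653 bp for all regions. It was 53197, 121248 and 69036 bp in these 3 classes and 330 bp for regions of all 4 lists. Among the regions found in a single list, those of WDM-WDO thus had the shortest median distance and the highest share inside genes. Their share at close range was not the highest. Within 1 kb of a start site lay 5.14%, against 6.14% in WDM-CDO alone, 2.43% in CDM-WDO alone and 5.70% in CDM-CDO alone. No window is listed on chromosome 18, whose regions were left out of these distances.

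**Figure D1:**
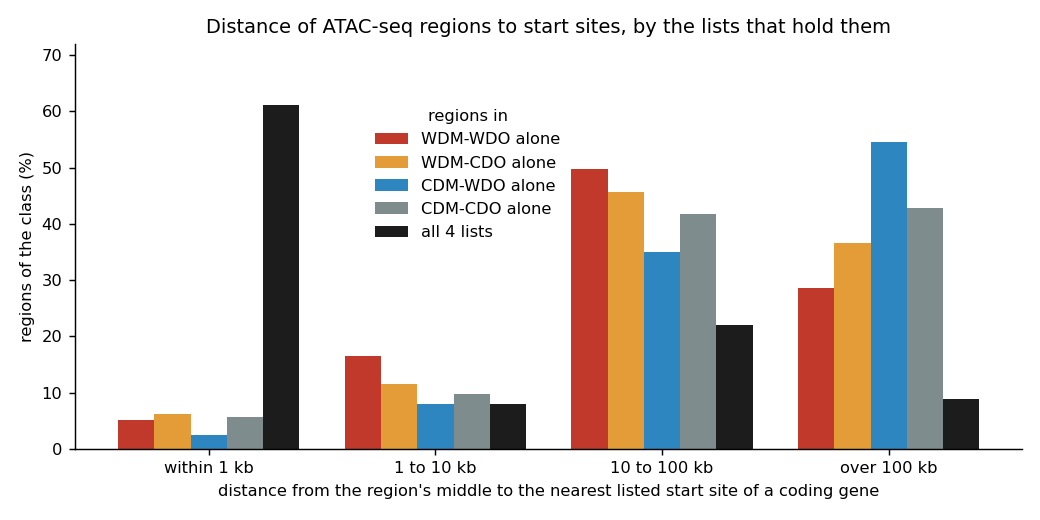
Share of regions (vertical axis, %) by distance from a region's middle to the nearest listed start site of a coding gene (horizontal axis), for regions found in 1 list alone and in all 4 lists. Of the WDM-WDO-only regions 49.8% lay at 10 to 100 kb and 28.6% over 100 kb away, against 54.6% over 100 kb for regions in CDM-WDO alone.

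At gene ends, 424 of 21631 coding genes (1.96%) had a WDM-WDO-only region within 1 kb and no peak of another list at either end. The same held for 531 genes with WDM-CDO regions, 166 with CDM-WDO regions and 265 with CDM-CDO regions. The strongest, leaving out peaks on a local background over 3 times that of the genome, lay at Adamts13, which encodes the protease that cleaves von Willebrand factor (chr2:26973717-26974444). It had a summit pileup of 81 reads and a −log10 q of 33.5. The scaled pileup at this place would be 99.7 reads for WDM-CDO, 55.6 reads for CDM-WDO and 67.8 for CDM-CDO, and no peak was called in any of them. Lin54 followed (chr5:100500725-100501486) with 69 reads and a −log10 q of 22.0. The region at Cd86, which encodes a co-stimulatory ligand of antigen-presenting cells (chr16:36665310-36666113), had 55 reads and 20.9.

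The other gene-end regions among the strongest 10 lay at Tagap (60 reads), the interferon-inducible GTPase gene Gm12250 (64), 6430571L13Rik and its neighbour Hemk1 (61), Mllt11 (69), Gm14548 (38), Acod1 (56) and Tgm2 (65). Acod1 makes itaconate in activated macrophages, and Tgm2 encodes tissue transglutaminase. Gm14548 belongs to the paired immunoglobulin-like receptors, whose near-identical copies can share reads. Their −log10 q ran from 15.2 at Tgm2 to 20 at Tagap.

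Away from gene ends the strongest region lay inside Rbm47, which encodes an RNA-binding protein (chr5:66111920-66112567), with 85 reads and a −log10 q of 39.5. Next came regions in E030030I06Rik (67 reads), in the sphingomyelin synthase gene Sgms2 (72 reads) and 62519 bp from Zfp438 (71 reads). A region inside Runx2, which encodes a transcription factor of bone and calcifying cells, had 69 reads (chr17:44663699-44664509). Those in or near Mcph1, Chrna9, Rasgef1b, Vmp1 and Sema4b completed the strongest 10, with 61 to 71 reads and −log10 q from 24.0 to 26.2. A further 252 regions (2.96%) stood on a local background over 3 times that of the genome. The strongest of these were 1035295 bp from Lrrc4c (737 reads on a background of 118) and 21210 bp from Ly6c2 (331 reads on 29.8).

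By number, 4974 of 21631 coding genes (23%) had at least 1 of the 7368 regions that could be assigned to a gene, the nearest within 100 kb. Among all 41492 assigned regions, 17.8% were WDM-WDO-only, 16.1% were in WDM-CDO alone, 8.33% in CDM-WDO alone and 8.08% in CDM-CDO alone. Dock10, which encodes a guanine nucleotide exchange factor of blood cells, had the most, 10 of its 17 regions. Spata13 had 9 of 18, Lpp 9 of 27 and the cAMP phosphodiesterase gene Pde4d 9 of 35. Rgl1 had 8 of 16, Frmd4a 8 of 17, the focal adhesion gene Tns3 8 of 17, Abca1 8 of 21 and Foxp1 8 of 43. Srgap2, first among 6 genes with 7 when ordered by share, had 7 of 9. These are long genes of 129 to 1302 kb, and a long gene can gather more regions of any class.

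Some genes carried WDM-WDO-only regions and no other region at all. There were 699 of them, against 778 genes with WDM-CDO regions only, 463 with CDM-WDO and 356 with CDM-CDO regions only, and 14 of the 699 had 3 or more regions. C3ar1, which encodes the receptor for complement fragment C3a, Il10ra, which encodes the interleukin-10 receptor, and Stac had 4 each. Those with 3 were C1qtnf3, the chemokine gene Ccl6, the chemokine receptor gene Ccr3, the lectin gene Clec4n (dectin-2), Csf2rb2, Grk3, the myeloid membrane genes Ms4a6d and Ms4a7, Syt11, Unc93a and Wscd2. Several of these are genes of myeloid cells, but the genes were named after their values were seen and no test was made. Along the chromosomes, 62 runs of 4 or more WDM-WDO-only regions had no region of another kind between them, against 63 runs of the WDM-CDO class, 74 of the CDM-WDO class and 6 of the CDM-CDO class. The longest held 8 regions over 360 kb next to Cited2 (chr10:17347898-17707655). The most compact of the long runs held 6 regions in 20.7 kb at C3ar1 and Necap1 (chr6:122852754-122873440), with 26 to 55 reads.

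**Figure D2:**
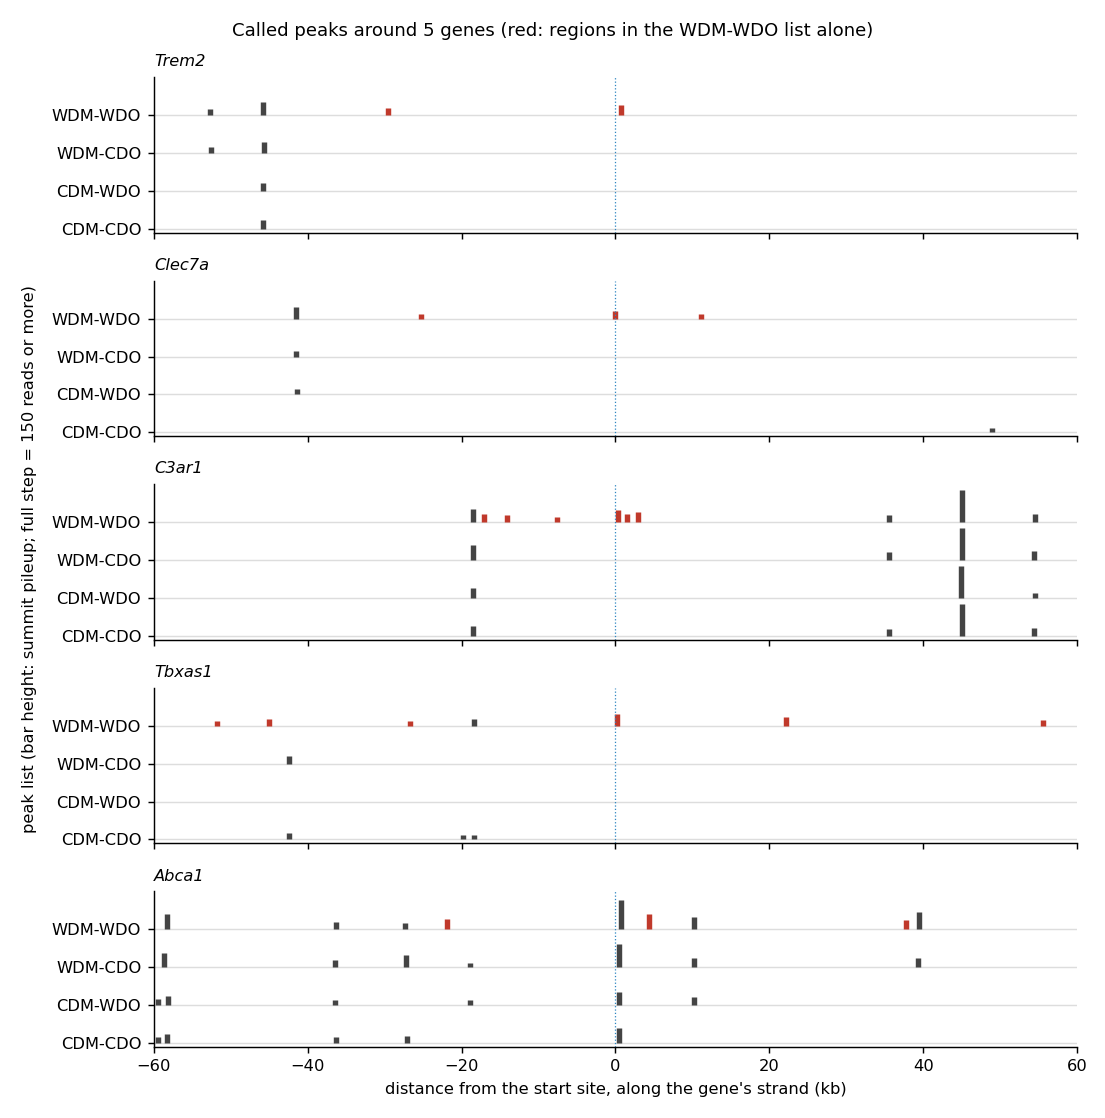
Called peaks within 60 kb of the start site of Trem2, Clec7a, C3ar1, Tbxas1 and Abca1 in the WDM-WDO, WDM-CDO, CDM-WDO and CDM-CDO lists (rows, top to bottom); the horizontal axis is the distance from the start site in kb and the height of a bar is the summit pileup, cut at 150 reads. Red bars are WDM-WDO-only regions: 2 of 4 WDM-WDO peaks around Trem2, 3 of 4 around Clec7a, 6 of 10 around C3ar1, 6 of 7 around Tbxas1 and 3 of 9 around Abca1.

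In the map of peaks around 5 genes, chosen after their values were seen, the WDM-WDO-only regions stood among peaks that other lists shared. At C3ar1, 4 of the 10 WDM-WDO peaks had a counterpart in another list, including the strongest (241 reads, against 308 for WDM-CDO, 165 for CDM-WDO and 238 reads in the CDM-CDO list). At Tbxas1 no peak was called in CDM-WDO within 60 kb of the start site, 1 in WDM-CDO and 3 in CDM-CDO. At Trem2 the peak at the start site had 48 reads in WDM-WDO. Scaled, it would have 58.3 reads in WDM-CDO, 33.6 reads in CDM-WDO and 40.1 reads in CDM-CDO, all above the lowest called pileup of 15, 15 and 14 reads. For WDM-CDO this was fixed in advance. The lowest pileups also leave out the local background, 12.9 reads at this peak in WDM-WDO. It is therefore not shown that a peak would have been called there in the other lists.

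Of 27 lists of genes, the macrophage and monocyte markers had the highest share of WDM-WDO-only regions when regions were assigned within 100 kb. Within 10 kb, neutrophil markers stood higher (7 of 12 regions, 58.3%) than macrophage and monocyte markers (36 of 68, 52.9%). Within 100 kb, WDM-WDO-only regions made up 44 of the 92 regions assigned to these genes (47.8%, 37.9 to 57.9%), against 17.8% of all assigned regions. Regions in WDM-CDO alone made up 5.4% of the 92, CDM-WDO alone 5.4% and CDM-CDO alone 2.2%, each below their 16.1%, 8.33% and 8.08% of all assigned regions. In total 23 of the 30 marker genes had at least 1 WDM-WDO-only region, against 4974 of 21631 coding genes (23%). Ly6c2 is among them only through its region on a high background, named above. The gene counts of the lists below stand beside the same share of all coding genes. The macrophage and monocyte list was drawn up with earlier results on these markers known, so its high share is not independent evidence. The margin above was applied to WDM-WDO-only regions alone. With those that missed it left out, 21 of 69 regions (30.4%) were WDM-WDO-only, against 5.58% of all assigned regions then left.

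Itgam, Cd9 and F13a1 had the most, 5 regions each. Itgam, the integrin chain of the complement receptor CR3, had 5 of its 8 regions in WDM-WDO alone, with 19 to 33 reads. Cd9, which encodes a tetraspanin of lipid-associated macrophages, had 5 of 9 with 32 to 54 reads. F13a1, the gene of coagulation factor XIII subunit A, had 5 of 9 with 23 to 40 reads. The efferocytosis receptor gene Mertk had 3 of 4 and Gpnmb, a gene of lipid-laden macrophages, 3 of 5. Both regions of the beta-glucan receptor gene Clec7a (36 and 22 reads) and both of the mannose receptor gene Mrc1 (29 and 25 reads) were WDM-WDO-only. The same held for the single regions of Trem2 (48 reads), C1qb (50 reads) and the scavenger receptor gene Msr1 (31 reads). Adgre1, which encodes the F4/80 antigen, had 2 of 4 with 42 and 28 reads.

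At their own ends, 8 of the 30 genes had a WDM-WDO-only region and no peak of another list: F13a1, Itgam, Adgre1, Clec7a, Clec4d, Trem2, C1qb and Csf1r, the receptor gene for the macrophage growth factor CSF1. This is 8 of 30, where 1.96% of all coding genes had such an end. Their strongest −log10 q was 11.1 at Trem2, followed by 10.1 at C1qb and 9.57 at Clec7a. Spi1, the gene of PU.1, had 1 of 3 regions (62 reads). Cd68, Cd14 and Tlr2 had no WDM-WDO-only region, and C1qc, Marco, Timd4 and Lyve1 had no region in any list. The region nearest Ly6c2 was the one on a high background named above.

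The regions that all 4 lists shared near the same markers had no part in choosing the WDM-WDO-only regions. The marker list itself was drawn up with earlier results on these markers known, and the libraries are the same, so they are not independent evidence. There were 16 of these shared regions. Their summit pileup above background in WDM-WDO was a median 1.71 times that in WDM-CDO, against 0.829 times for all 10351 regions of all 4 lists. It was 1.89 times that in CDM-WDO, against 1.5 times for all, and 2.23 times that in CDM-CDO, against 1.2 times for all. Of the 16, the ratio exceeded that of all shared regions in 13, 12 and 14. A higher ratio was not particular to these markers. In the same order, it was higher in 20, 12 and 16 of 21 shared regions near chemokine and cytokine genes. Near lipid uptake and foam cell genes this held for 23, 18 and 21 of 26. Cholesterol synthesis and uptake genes (5, 7 and 5 of 18) and cell cycle genes (9, 8 and 8 of 23) leaned the other way. Their medians were 0.752, 1.41 and 1.05, and 0.775, 1.31 and 1.04, each below that of all shared regions. At Csf1r the shared region had 119 reads in WDM-WDO, against 49 reads in WDM-CDO, 52 reads in CDM-WDO and 26 reads in CDM-CDO. The stronger of the regions of Lgals3, the galectin-3 gene, had 159, against 95, 76 and 53 reads, and the other 156, against 57, 65 and 34. At one of the regions of Fcgr1, which encodes an Fc receptor, the order differed, with 78 reads in WDM-WDO, 112 for WDM-CDO, 45 for CDM-WDO and 65 reads for CDM-CDO. The shared region of Mertk likewise had fewer reads in WDM-WDO (61) than in WDM-CDO (84). The comparison was made after the member counts were seen, and 1 list a group allows no test.

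**Figure D3:**
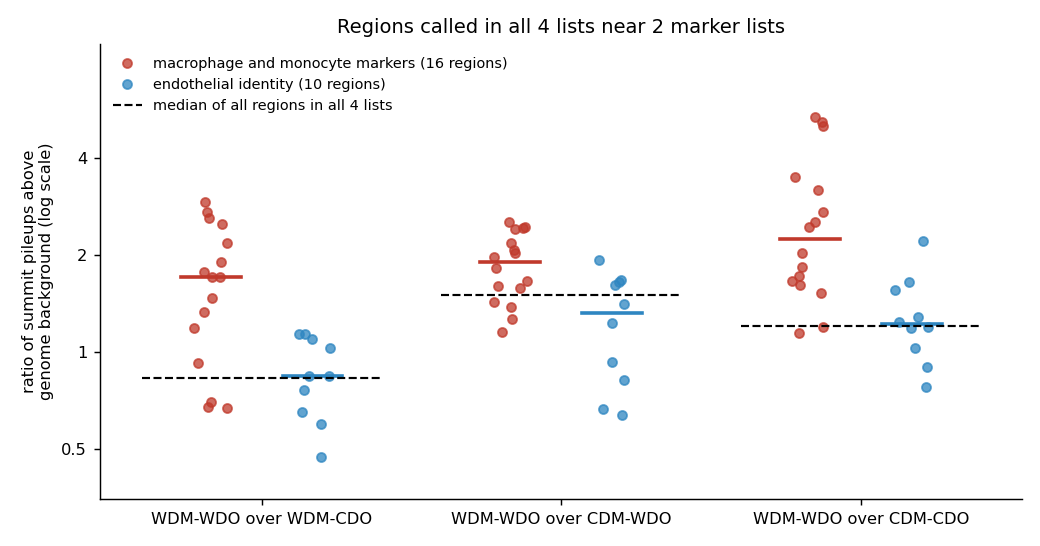
Ratio of summit pileups above genome background (vertical axis, log scale) in WDM-WDO over WDM-CDO, CDM-WDO and CDM-CDO at regions called in all 4 lists; points are regions near macrophage and monocyte markers (16) and endothelial identity genes (10), short lines their medians and dashed lines the median of all such regions. The medians of the macrophage regions were 1.71, 1.89 and 2.23, against 0.829, 1.5 and 1.2 for all regions.

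The labelled cell type was checked against its own markers. Of 22 endothelial identity genes, 16 had a region in WDM-WDO, against 19 genes in the WDM-CDO list, 17 in that of CDM-WDO and 16 in that of CDM-CDO. Plvap, Robo4 and Sox18 had none in any list. These genes had 34 regions in WDM-WDO, with summed summit pileups of 1227 reads (mean 36.1), against 57 regions and 2231 reads (39.1) in WDM-CDO, 43 and 1392 (32.4) in CDM-WDO and 31 and 959 (30.9) in CDM-CDO. WDM-WDO-only regions made up 11 of their 84 regions (13.1%, 7.5 to 21.9%). With regions of a single list left out for every group, WDM-WDO had 23 regions and 942 reads (mean 41.0), against 41 and 1732 (42.2) for WDM-CDO, 35 and 1222 (34.9) for CDM-WDO and 26 and 873 (33.6) for CDM-CDO. The 11 included 3 of 10 at Kdr, the VEGF receptor gene (19 to 21 reads), 2 of 5 at Egfl7, and 1 each at Sox17, the VE-cadherin gene Cdh5 and Erg. At the 10 shared endothelial regions, pileups in WDM-WDO were a median 0.842 times those in WDM-CDO, 1.32 times those in CDM-WDO and 1.22 times those in CDM-CDO.

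Macrophage and monocyte markers had 75 regions in WDM-WDO in 26 of 30 genes, with summed pileups of 3924 reads (mean 52.3). WDM-CDO had 37 regions in 19 genes and 1640 reads (44.3), CDM-WDO 30 in 19 genes and 1191 reads (39.7), and CDM-CDO 26 in 16 genes and 939 reads (36.1). Of the 75 regions 44 are the WDM-WDO-only regions themselves, so this contrast rests largely on the values that chose them. With regions of a single list left out for every group, WDM-WDO had 31 regions and 2153 reads (mean 69.5), against 32 and 1538 (48.1) in WDM-CDO, 25 and 1082 (43.3) in CDM-WDO and 24 and 870 (36.2) in CDM-CDO. The number of regions was then about that of WDM-CDO, while the mean pileup was the highest of the 4. T cell and NK cell markers went another way, with 35 regions and 1309 reads (mean 37.4) in WDM-WDO, against 56 and 3299 (58.9) in WDM-CDO, 10 and 280 (28.0) in CDM-WDO and 43 and 2072 (48.2) in CDM-CDO. Cd3e, Gzma, Gzmb, Klrd1, Ncr1 and Nkg7 had no region in WDM-WDO, but Klrd1, Ncr1 and Nkg7 had none in any list. Gzma had a region in CDM-CDO only, Cd3e also lacked one in CDM-WDO, and Gzmb lacked one in CDM-CDO. Of the 20 genes, 14 had a region in WDM-WDO, against 6 for CDM-WDO and 16 for each of the CDO lists. Whether macrophages in the preparation or the endothelial cells themselves carried the WDM-WDO-only regions near these markers was not tested.

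Markers of other white blood cells were examined in the same way. Of the 18 regions near neutrophil markers 8 were WDM-WDO-only (44.4%, 24.6 to 66.3%) and 33.3% were in WDM-CDO alone. The 8 lay in 5 of 14 genes: Il1r2, Mmp8 and Retnlg with 2 each, and Csf3r and Ltf with 1. They were weak, with 17 to 23 reads except for 40 at Csf3r, the receptor gene for the growth factor G-CSF. No region in WDM-WDO lay at 8 of the 14 genes, S100a9 and Ly6g among them. Camp, Cxcr2, Elane and Ngp had none in any list. Neutrophil markers had 10 regions in 6 genes in WDM-WDO, 7 in 5 in WDM-CDO, 2 in 2 in CDM-WDO and 1 in 1 in CDM-CDO. With regions of a single list left out for every group, these were 2, 1, 1 and 0 regions. B cell markers had 12 of 39 (30.8%, 18.6 to 46.4%), 3 of them at Ebf1 and 2 each at Bank1, Pax5, Ms4a1 and Cr2. T cell and NK cell markers had 9 of 77 (11.7%, 6.3 to 20.7%), where regions in WDM-CDO alone made up 23.4%. Smooth muscle markers had 7 of 29 (24.1%), fibroblast markers 6 of 27 (22.2%), adipocyte markers 2 of 23 (8.7%) and red cell markers 0 of 3, which at so few regions sets no useful limit.

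**Figure D4:**
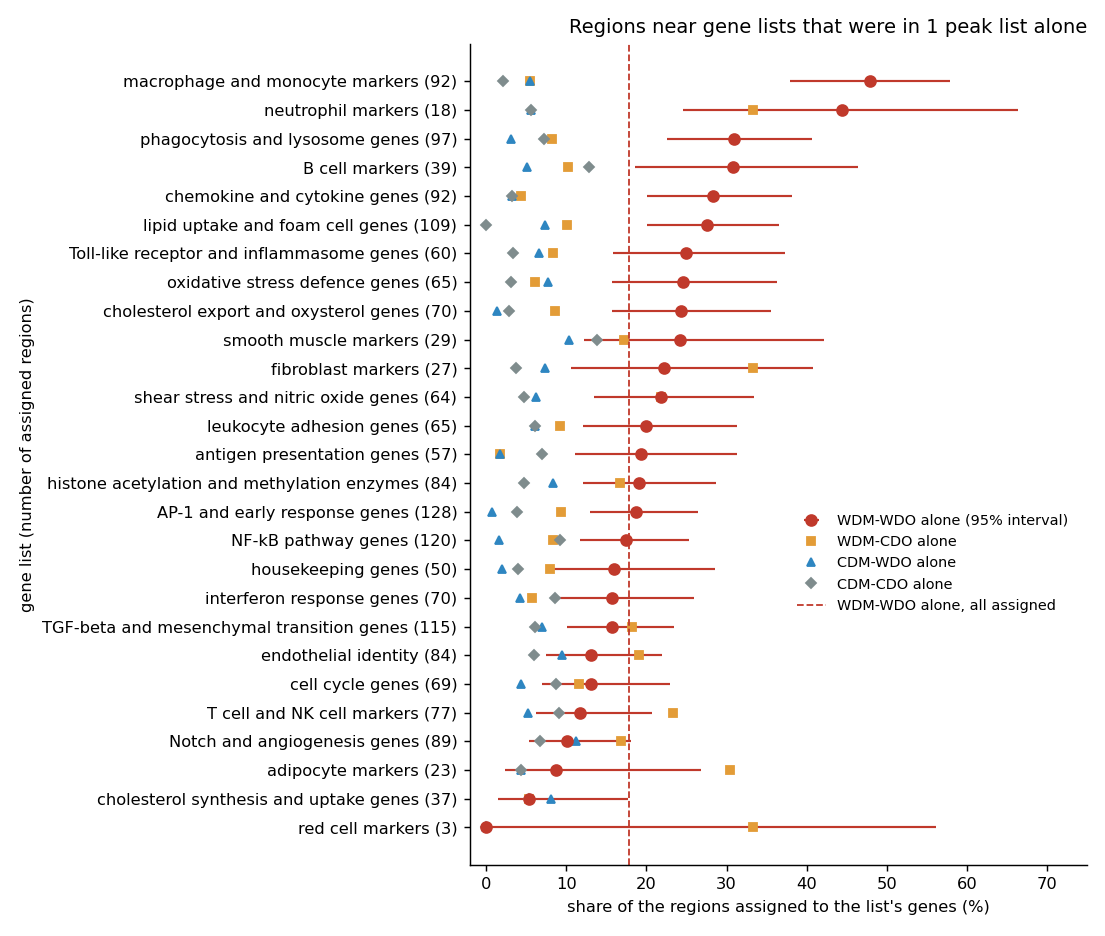
Share of the regions assigned to 27 gene lists (rows, number of regions in parentheses) that were in 1 peak list alone (horizontal axis, %); red points with 95% Wilson intervals are WDM-WDO-only regions, other symbols the regions in WDM-CDO, CDM-WDO or CDM-CDO alone, and the dashed line is the 17.8% of all assigned regions. The interval lies above the line for 6 lists, from macrophage and monocyte markers (47.8%) to lipid uptake and foam cell genes (27.5%), and just below it for cholesterol synthesis and uptake genes (5.4%).

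Genes of engulfment and the lysosome had 30 of 97 regions in WDM-WDO alone (30.9%, 22.6 to 40.7%), in 16 of 25 genes. Syk, the kinase downstream of Fc and C-type lectin receptors, had 6 of 16 with 27 to 56 reads. The kinase gene Lyn had 3 of 10 and the cathepsin gene Ctsl 3 of 4. Sirpa, which encodes the receptor that holds back engulfment, had 2 of 8. The ends of the Fc receptor genes Fcgr2b (41 reads) and Fcgr4 (24 reads) and of Cd300lf (33 reads) had a region in WDM-WDO and no other list. Mertk stood in this list and in the macrophage list.

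Chemokine and cytokine genes had 26 of 92 (28.3%, 20.1 to 38.2%), in 15 of 29 genes. Il10, which encodes the anti-inflammatory cytokine interleukin-10, had 4 of 7 with 24 to 52 reads. All 3 regions nearest Ccl6 were WDM-WDO-only, with 46, 29 and 25 reads. Lif, an interleukin-6 family cytokine gene, had 3 of 5, the strongest with 63 reads and 21895 bp from the gene. Ccl2, which encodes the main monocyte attractant MCP-1, had 2 of 5 (50 and 35 reads), Csf1 2 of 4 and Ccl4 2 of 3. Within 10 kb of a gene the share of this list was 21.6%, near the 16.7% of all regions so assigned.

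Genes of lipid uptake and foam cells had 30 of 109 (27.5%, 20 to 36.6%), in 17 of 23 genes. Pparg, the nuclear receptor of lipid storage and of lipid-handling macrophages, had 5 of 7 with 18 to 30 reads. Nceh1, which encodes an enzyme that hydrolyses cholesterol esters, had 3 of 9 with 37 to 44 reads. The fatty acid transporter gene Cd36 had 3 of 11 with 18 to 34 reads, beside 4 in CDM-WDO alone. Fabp5 had 2 of 9, and both regions of Lamp1 were WDM-WDO-only. None of the 109 regions was in CDM-CDO alone.

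Cholesterol export and oxysterol genes had 17 of 70 (24.3%, 15.8 to 35.5%), and 8 of the 17 belonged to Abca1, the exporter of cellular cholesterol to apolipoprotein A-I. Those 8 had 22 to 70 reads and a −log10 q of 2.56 to 13.4, and 18 of the 21 regions of the gene were called in WDM-WDO. Rxra, the partner of the oxysterol receptors, had 3 of 7, and Nr1h3, which encodes the oxysterol receptor LXR-alpha, 1 of 2 (47 reads). Apoe had 1 of 2 (41 reads). In contrast, cholesterol synthesis and uptake genes had 2 of 37 (5.4%, 1.5 to 17.7%), among them 1 at Hmgcs1 (18 reads), while 48.6% of their regions were in all 4 lists.

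Inflammatory signalling genes lay nearer to the share of all regions. Toll-like receptor and inflammasome genes had 15 of 60 (25.0%, 15.8 to 37.2%), led by Tlr1 with 3 of 5 and Aim2 and Tlr13 with 2 each. NF-kB pathway genes had 21 of 120 (17.5%), with 4 of 15 at Tnfaip3, which encodes the inhibitor A20, and 3 of 15 at Nfkb1. Genes of AP-1 and other early responses had 24 of 128 (18.8%), with 4 of 9 at Atf3, 3 of 11 at Fos (80, 36 and 27 reads) and 3 of 12 at Klf6. Interferon response genes had 11 of 70 (15.7%), among them the gene-end regions of Oas3 (50 reads) and Irf5 (58 reads). Antigen presentation genes had 11 of 57 (19.3%), and 6 of these 11 belonged to Cd86, with 21 to 55 reads. Both regions of Ciita, the regulator of class II genes, were among them (30 reads each).

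Oxidative stress defence genes had 16 of 65 (24.6%, 15.8 to 36.3%). Nfe2l2, which encodes the antioxidant regulator NRF2, had 2 of 9, the stronger with 75 reads and a −log10 q of 19.1 (chr2:75685525-75685917). Cyba and Ncf1, which encode subunits of the phagocyte NADPH oxidase, had 1 of 2 each (85 and 52 reads). Leukocyte adhesion genes had 13 of 65 (20%), 5 of them at Itgam. Shear stress and nitric oxide genes had 14 of 64 (21.9%), with 3 of 7 at the endothelin receptor gene Ednrb and 2 of 3 at the prostaglandin synthase gene Ptgs1. TGF-beta and mesenchymal transition genes had 18 of 115 (15.7%), 5 of them at Zeb2. Notch and angiogenesis genes had 9 of 89 (10.1%), cell cycle genes 9 of 69 (13%), histone acetylation and methylation enzymes 16 of 84 (19%) and housekeeping genes 8 of 50 (16.0%). The intervals of these last 8 lists all held the 17.8% of all assigned regions.

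The promoter windows under WDM-WDO-only regions were poor in CpG beside those under regions of all 4 lists. There were 385 such windows in 353 genes, several windows of 1 gene among them, and their median was 6 CpG dinucleotides in 300 bp. It was 17 under regions in WDM-CDO alone, 7 under CDM-WDO alone, 15 under CDM-CDO alone and 23 under regions of all 4 lists. The median of all windows, 7, was near that of the WDM-WDO-only regions. Windows with 10 or fewer CpG made up 69.4% (64.6 to 73.7%), against 34.1%, 62.1% and 38.5% in the other single-list classes, 10.3% under regions of all 4 lists and 58.3% of all 32619 windows.

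Of 13 short sequences searched on both strands, AP-1, PU.1, the ISRE core and, narrowly, C/EBP (TTGCNNAA) and CpG itself had intervals above the share of all windows. C/EBP was in 14.0% (10.9 to 17.9%), against 10.9% of all windows, and at least 1 CpG in 97.9%, against 94.7%. The PU.1 motif GAGGAAGT was in 32 of the 385 (8.31%, 5.95 to 11.5%), against 3.22% of all windows. It was in 4.09% of the windows under regions in WDM-CDO alone, 2.11% for CDM-WDO alone, 2.44% for CDM-CDO alone and 3.13% for all 4 lists. The AP-1 motif TGANTCA was in 16.6% (13.2 to 20.7%), against 7.85% of all windows and 6.59%, 6.32%, 4.39% and 4.16% in these classes. The ISRE core GAAANNGAA was in 13.8% (10.7 to 17.6%), against 8.53% of all windows and 6.36%, 11.6% (6.59 to 19.6%), 8.29% and 6.2% in the 4 classes in the same order. The SP/KLF motif GGGCGG was in 29.1%, against 35.9% of all windows and 70.1% under regions of all 4 lists.

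Because CpG content differed between the classes, CpG-poor windows were also set side by side. Among windows with 10 or fewer CpG, PU.1 was in 11.2% under WDM-WDO-only regions (8.0 to 15.6%). It was in 8.0% (4.6 to 13.5%) under regions in WDM-CDO alone, 3.39% (0.93 to 11.5%) in CDM-WDO alone, 2.53% (0.70 to 8.77%) in CDM-CDO alone, 7.0% (5.5 to 8.9%) under those of all 4 lists and 3.8% of all. Each of these class intervals overlapped that of the WDM-WDO-only regions. AP-1 was in 19.9% (15.5 to 25.0%), against 12.7% (8.3 to 18.9%), 5.08%, 8.86% (4.4 to 17.2%), 10.8% and 10.8%. The AP-1 intervals of WDM-CDO alone and CDM-CDO alone overlapped that of the WDM-WDO-only regions. The ISRE core was in 17.2% (13.2 to 22.2%), below the 18.6% (10.7 to 30.4%) of CDM-WDO alone. It was in 9.33% (5.64 to 15.1%) in WDM-CDO alone, 11.4% (6.11 to 20.3%) in CDM-CDO alone, 10.8% in all 4 lists and 10.6% of all. The ISRE intervals of WDM-CDO alone, CDM-WDO alone and CDM-CDO alone overlapped that of the WDM-WDO-only regions. The motif lay wholly inside the called region in 26 of the 32 windows for PU.1, 46 of 64 for AP-1 and 32 of 53 for the ISRE core. The 250 bases printed for Trem2, Tnip3, Tbxas1, Cd80 and Oas3 show such matches.

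**Figure D5:**
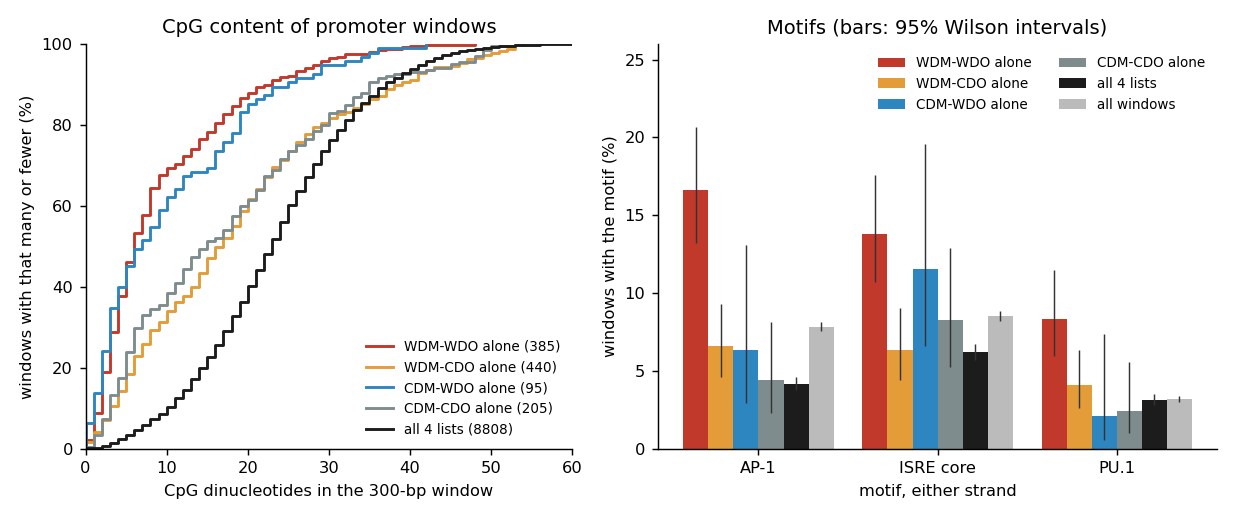
Left, the share of promoter windows (vertical axis, %) with a given number of CpG dinucleotides or fewer (horizontal axis) under regions of each class; right, the share of windows with the AP-1, ISRE core or PU.1 motif (vertical axis, %) and its 95% Wilson interval. The curve of the WDM-WDO-only regions reaches 69.4% at 10 CpG, against 10.3% for regions of all 4 lists.

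Among 1005 miRNA hairpins, 4 (0.398%) lay under a WDM-WDO-only region, 4 under a region in WDM-CDO alone, 1 in CDM-WDO alone, 2 in CDM-CDO alone, 57 (5.67%) in all 4 lists and 89 (8.86%) under any region. The count is thus no higher than that of WDM-CDO. The hairpin of miR-155, a miRNA of activated macrophages and lymphocytes that acts in inflammation, lay in a region of 28 reads and −log10 q of 4.41 (chr16:84713967-84714282), with no region of another kind within 1 kb. That of miR-1271 had 48 reads and 10.4, that of miR-6541 had 24 reads and 3.97, and that of miR-8090 had 22 reads and 4.12. A called region at a hairpin does not give the level of the miRNA. Their mature sequences from RefSeq (GRCm38.p6) follow, with the seed (bases 2 to 8) in capitals, to show that no seed was shared between them.
mmu-miR-155-5p: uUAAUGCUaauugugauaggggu
mmu-miR-155-3p: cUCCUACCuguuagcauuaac
mmu-miR-1271-5p: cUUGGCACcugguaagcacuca
mmu-miR-1271-3p: aGUGCCUAcugugugccaagaca
mmu-miR-6541: cACAGGCAaggacuucucaag
mmu-miR-8090: gAAGCGCAguggaggucugu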

How the data were processed

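ATAC-seq of mouse aortic endothelial cells was analysed in 8 samples, 2 in each of 4 groups; 4 further samples, of H3K27ac, were not analysed here. The submitters' processing notes list the build GRCm38 (mm10) and, with no role or order stated, MACS2 2.2.9.1, Bowtie2 2.4.5, SAMtools 1.13, Trim Galore 0.6.10, FastQC 0.12.1 and deepTools 3.5.4. Their settings, any shift of read ends for the transposase and whether the 2 samples of a group were pooled are not given in the sources used here. As deposited by the authors, each peak has a fold enrichment, which is a ratio to its local background. The −log10 p and −log10 q of each peak were likewise as the authors deposited them, and so was the offset of the summit. They describe or rank peaks within their own list. The lists held 26275 (WDM-WDO), 28319 (WDM-CDO), 18962 (CDM-WDO) and 22178 (CDM-CDO) peaks on chromosomes 1 to 19 and X; the total reads behind each are unknown.

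Summit pileups were recovered as the whole number of reads that gives both the fold and the −log10 p under a Poisson background, with 1 read added to both in the fold. A match within a relative tolerance of 0.0001 was found for 100% of peaks. The lowest background of a list (6.08, 5.59, 5.49 and 4.84 reads, in the same order of lists) was taken as that of the genome. This served to set lists side by side, since no counts per sample were used. Recovery, merging and assignment were checked on simulated data.

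Regions were assigned to the nearest of 21631 RefSeq protein-coding gene spans (GRCm38.p6) within 100 kb; a gene end is a window of 1 kb around either end of a span. Of the 565 genes in 27 lists, Mx1 and Mx2 did not match, and 10 genes stand in more than 1 list. Promoter windows were listed for 17274 of the coding genes, none of them on chromosome 18. The members, lists, motifs and alternatives were chosen with earlier results of these data known. Genes were named by rule: the 10 with the most regions, those at the 10 strongest regions at and away from gene ends, and in each list up to 5 by number and 5 by strongest gene end; genes of the map, of the shared regions and with no other region, and the printed sequences, were chosen after their values were seen. Regions, genes and windows of 1 list share their libraries and are not replicates, so no p-value is given. Marker levels without single-list regions and hairpins by class were added after seeing the data. Some genes that this rule names are not reported here. Python 3.11.15, pandas and scipy were used.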

Additional observations from a re-analysis of the deposited data

Results flagged for a closer look

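Peaks on chromosome Y were outside the comparisons. The WDM-WDO list held 8 of them, WDM-CDO 5, CDM-WDO 3 and CDM-CDO 4, and the strongest had a −log10 q of 33.2 and a summit pileup of 80 reads in WDM-WDO, against 29.3 and 60 reads in WDM-CDO, 19 and 48 reads in CDM-WDO, and 14.6 and 50 reads in CDM-CDO. The sexes of the animals are not given in the sources used here.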

How the results depend on the processing

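The number of WDM-WDO-only regions lay within 1.5 times of 8520 with a −log10 q of at least 2 in all lists or in WDM-WDO alone, with merging within 200 or 1000 bp and without peaks on a high local background. It was 3824 with all lists cut to 18962 peaks and 2103 with the margin of 1.5 times the lowest called pileup. That margin was applied to WDM-WDO-only regions alone, and all other regions were kept. The gene-end share of 8.09% was 11.7% at equal list length, 14.5% with the margin, 6.86% with merging within 1000 bp and 3.91% with a gene-end window of 250 bp; all regions stood at 32.4%, 27.6%, 24.8% and 20.5% under these settings. The share near macrophage and monocyte markers (47.8%) stayed within its interval at 41.4 to 53.1% under all other settings and was 30.4% with the margin (21 of 69 regions, against 5.58% of all assigned regions). Of these, leaving out the genes with 5 regions was added after seeing the data and gave 43.9%. The PU.1 share of promoter windows (8.31%) ran from 8 to 9.64% and the AP-1 share from 15.2 to 18.8% under 5 settings, also added after seeing the data. With regions assigned within 10 kb, all 26 other gene lists stayed within their own intervals, and neutrophil markers (58.3%) then stood above macrophage and monocyte markers (52.9%). No paired analysis was possible because each group is 1 peak list that does not separate its samples; for the same reason no replicate could be left out. The lists differ in depth by unknown amounts, and weak peaks near the threshold are the least certain.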

Other observations

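On the X chromosome 162 of 1666 regions (9.72%) were WDM-WDO-only, the lowest share of any chromosome, where chromosome 13 had the highest (20.5%). Of all WDM-WDO-only regions 1.90% lay on X, against 4.43% of the regions in WDM-CDO alone, 7.02% in CDM-WDO alone and 4.73% in CDM-CDO alone. At regions of all 4 lists, pileups above background in WDM-WDO were a median 0.794 times those in WDM-CDO on X and 0.831 times on the autosomes; the ratios to CDM-WDO were 1.38 and 1.51, and those to CDM-CDO 1.11 and 1.2.

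Among 62 regions that overlapped gene segments of immunoglobulins and T cell receptors, 5 were WDM-WDO-only (8.06%), 14 in WDM-CDO alone, 0 in CDM-WDO alone and 13 in CDM-CDO alone. Olfactory receptor genes overlapped 45 regions, of which 7 were WDM-WDO-only, 14 in WDM-CDO alone, 13 in CDM-WDO alone and 6 in CDM-CDO alone. Genes of long non-coding RNAs overlapped 5844 regions, 950 of them WDM-WDO-only (16.3%), near the 17.7% of all regions.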
